A study of Saccharomyces cerevisiae and Saccharomyces mikatae and Saccharomyces paradoxus with 13 samples.

Results

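Ergosterol is the main sterol of yeast membranes. The mevalonate pathway builds farnesyl diphosphate from acetyl-CoA, with HMG-CoA reductase as its best known control point, and farnesyl diphosphate also feeds ubiquinone, dolichol and the lipid anchor of the pheromone a-factor. Squalene synthase commits farnesyl diphosphate to sterols, several of the steps after it use oxygen and heme, and surplus sterol is stored as esters in lipid droplets.

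The 31 ergosterol and sterol ester genes described here were picked by ORF name, and all 31 are among the 6132 ORFs of the array table. The early group holds 9 genes, from acetyl-CoA to farnesyl diphosphate (ERG10, ERG13, HMG1, HMG2, ERG12, ERG8, MVD1, IDI1 and ERG20). The late group holds 14 genes, from squalene synthase to ergosterol (ERG9, ERG1, ERG7, ERG11, ERG24, ERG25, ERG26, ERG27, ERG28, ERG6, ERG2, ERG3, ERG5 and ERG4). NCP1 and CYB5 supply electrons to late enzymes, UPC2, ECM22 and SUT1 are regulators, ARE1 and ARE2 make sterol esters, and ATF2 acetylates steroids.

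The 13 arrays carried S. cerevisiae cDNA probes and compared a sample with its own control in 2 colours. Haploid a-type cells of S. mikatae (derived from IFO 1815, 4 arrays), S. paradoxus (derived from CBS432, 3 arrays) and S. cerevisiae (BY4741, 3 arrays) grew in YPD and were taken 60 min after 6 µM alpha factor, the pheromone of alpha cells, against cells of the same species before it was added. A further 3 arrays compared cells of BY4741 and its alpha partner BY4742, left together on filters for 90 min, with cells of both strains kept on separate filters and pooled when RNA was extracted. BY4741 and BY4742 descend from S288C, carry deletions in HIS3, LEU2 and URA3 (with MET17 in BY4741 and LYS2 in BY4742), and share the S288C allele of HAP1, a heme-responsive activator, which is interrupted by a Ty element. Each species is represented by a single background, and both channels of the mating arrays hold RNA of both mating types.

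Values are log2 ratios of treated over untreated, or mixed over unmixed, cells, given as mean ± SD over the arrays that measured the gene (4 in S. mikatae and 3 in the other groups unless another n is given). The sources state neither the log base nor the direction, and the labels of the alpha factor arrays contradict each other on which dye the treated sample had. The direction used is thus only likely. Its basis is the order of the channels and genes known to respond to pheromone, such as FIG1, which stood at 4.62 ± 0.271 in S. mikatae, 5.02 ± 0.0378 in S. paradoxus, 4.97 ± 0.219 in mating and 4.97 ± 0.136 in S. cerevisiae after alpha factor.

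Replicate arrays correlated at 0.736 to 0.899. Ratios carry no levels, so the cell types could not be checked by level. All members of the a-cell marker list that were tested rose, 4 in S. mikatae, 7 in S. paradoxus, 6 in mating and 7 in S. cerevisiae after alpha factor. The alpha-cell markers STE3, SAG1, MF(ALPHA)1 and MF(ALPHA)2 all rose in mating, and of the 3 that were tested in each alpha factor group, 1 rose in S. mikatae, 1 in S. paradoxus and 2 in S. cerevisiae. Of the 31 genes, 28 could be tested in S. mikatae, 28 in S. paradoxus, 19 in mating and 31 in S. cerevisiae after alpha factor. ERG13 and HMG1 gave no value in S. mikatae or S. paradoxus, HMG2 gave none in S. paradoxus, and ERG24 was measured on a single S. mikatae array. The 12 genes with no value in mating were ERG10, MVD1, ERG1, ERG7, ERG24, ERG25, ERG6, ERG4, ECM22, SUT1, ARE1 and ATF2. The effect of mismatch between the probes and RNA of the other species was not measured, and fewer cells of a type and less RNA per cell cannot be told apart in such samples.

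**Figure D1:**
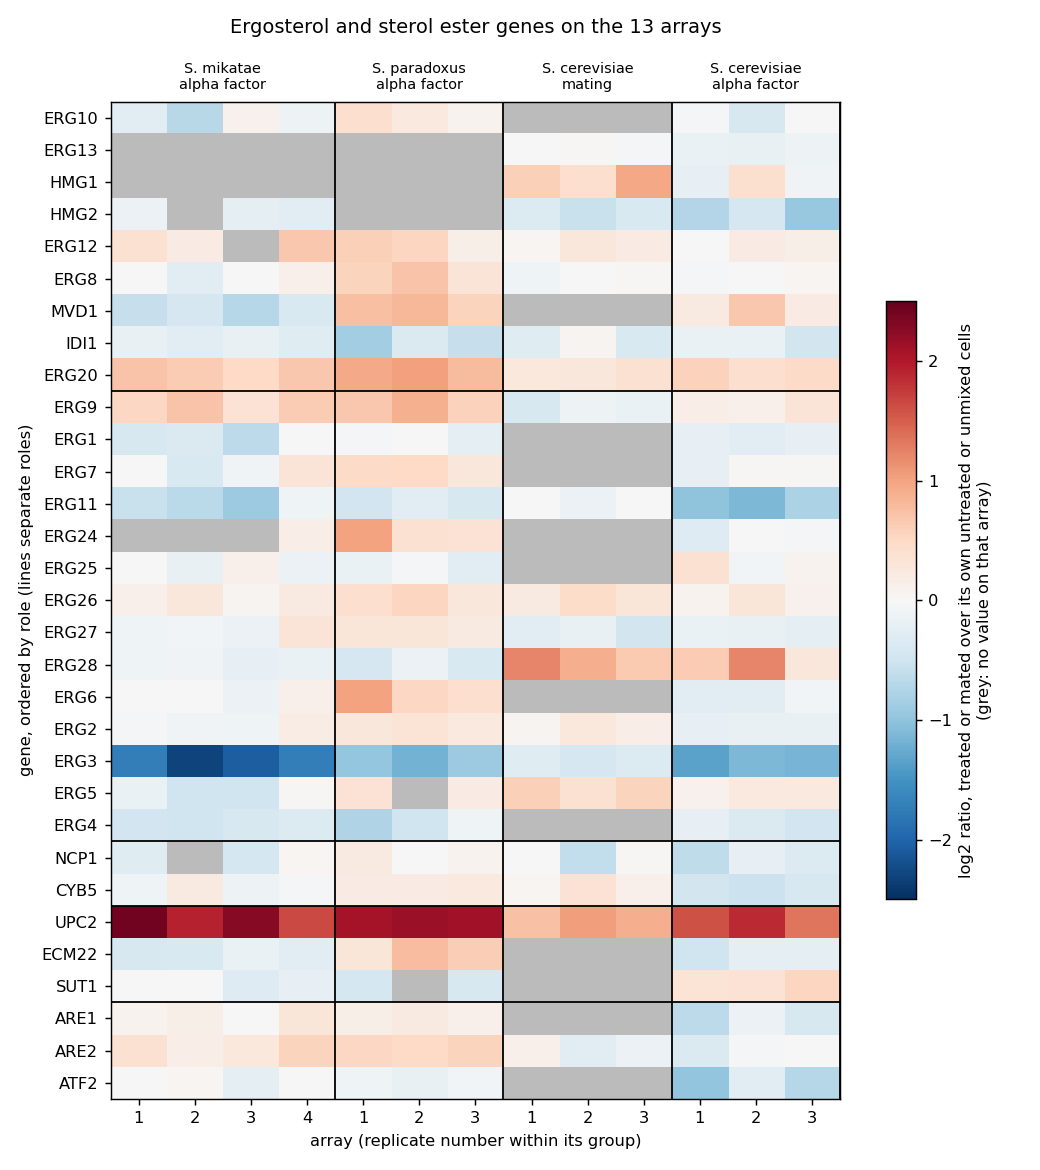
Log2 ratio (colour) of the 31 genes (rows, ordered by role) on the 13 arrays (columns, by group), with grey for no value. UPC2 and ERG20 were above 0 and ERG3 below 0 on all 13 arrays.

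The genes did not move as a block. In S. mikatae 6 of 28 tested members rose and 8 fell, against 23.7% and 25% of all ORFs tested (limma, Benjamini-Hochberg adjusted p under 0.05 over all ORFs, the rule for every call below). In S. paradoxus 15 of 28 rose and 5 fell, against 24.3% and 25% of all ORFs. In mating 6 of 19 rose and 4 fell, against 20.2% and 21%. In S. cerevisiae after alpha factor 5 of 31 rose and 10 fell, against 16.3% and 17.3%. In either direction the members' shares were 50% in S. mikatae, 71.4% in S. paradoxus, 52.6% in mating and 48.4% in S. cerevisiae after alpha factor, beside 48.7%, 49.3%, 41.2% and 33.6% of all ORFs, so the S. mikatae share lay near the background. The median member stood at −0.05 in S. mikatae, 0.28 in S. paradoxus, 0.00436 in mating and −0.15 in S. cerevisiae after alpha factor, while the medians of all ORFs tested lay between −0.00258 and 0.00421.

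Of 16 members tested in all 4 groups, UPC2 and ERG20 rose in all of them, against 5.48% of ORFs, and ERG3 fell in all of them, against 3.88%. Of 27 members tested in the 3 alpha factor groups, UPC2 and ERG20 rose in each, against 7.81% of ORFs, and ERG3, ERG4 and ERG11 fell in each, against 9.97%. Both shares in the alpha factor groups lay near the background. ERG2, MVD1, ECM22, CYB5 and SUT1 were called in opposite directions in different species. ERG10, ERG13 and ERG25 passed in no group.

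UPC2 (YDR213W), a zinc-cluster transcription factor that activates ERG genes when sterol is low, had the largest change of all members in each alpha factor group. It read 2.40, 1.92, 2.27 and 1.65 on the S. mikatae arrays, 2.09, 2.17 and 2.09 on the S. paradoxus arrays, 0.72, 1.05 and 0.90 on the mating arrays and 1.59, 1.87 and 1.35 on the S. cerevisiae alpha factor arrays. Every array was above 0, and the mating arrays lay below all others. The rise was 4.18-fold in S. mikatae (2.06 ± 0.343, adjusted p = 2.68e-09), 4.33-fold in S. paradoxus (2.12 ± 0.0448, adjusted p = 1.32e-08), 1.85-fold in mating (0.89 ± 0.162, adjusted p = 4.93e-05) and 3.03-fold in S. cerevisiae after alpha factor (1.60 ± 0.262, adjusted p = 9.93e-07). These means ranked 21 from the top of 4367 ORFs in S. mikatae, 26 of 4748 in S. paradoxus, 95 of 3712 in mating and 39 of 5789 in S. cerevisiae after alpha factor. The ratio in mating was below that after alpha factor in S. cerevisiae, with a difference of −0.71 (95% interval −1.08 to −0.34, adjusted p = 0.0115), and the designs differ in time and culture as well. The S. mikatae minus S. cerevisiae difference of 0.46 (0.11 to 0.82, adjusted p = 0.0869) and the S. paradoxus minus S. cerevisiae difference of 0.51 (0.13 to 0.89, adjusted p = 0.0615) did not pass. With arrays scaled to a common spread the S. paradoxus difference was 0.04, and it passed when only the arrays compared were fitted (0.51), with array weights (0.62) and without S. cerevisiae array 2 (0.65). The S. mikatae difference passed with array weights and without S. mikatae array 4.

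ECM22 (YLR228C), the related factor that acts on the same genes, did not follow UPC2. It read −0.40, −0.38, −0.17 and −0.27 in S. mikatae, 0.30, 0.77 and 0.62 in S. paradoxus and −0.51, −0.25 and −0.23 in S. cerevisiae after alpha factor. The S. paradoxus arrays were all above 0 and the others all below. ECM22 fell in S. mikatae (−0.30 ± 0.108, adjusted p = 0.00797), rose in S. paradoxus (0.56 ± 0.237, adjusted p = 0.000373) and fell in S. cerevisiae (−0.33 ± 0.157, adjusted p = 0.0201), the last call being lost without S. cerevisiae array 1 (adjusted p = 0.138). The ECM22 ratio was higher in S. paradoxus than in S. cerevisiae by 0.89 (0.60 to 1.18, adjusted p = 0.00101), and S. mikatae lay below S. paradoxus with a difference of −0.87 (adjusted p = 0.000639).

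SUT1 (YGL162W), a regulator of sterol uptake, read 0.02, 0.01, −0.32 and −0.20 in S. mikatae, −0.45 and −0.39 on the S. paradoxus arrays that measured it, and 0.34, 0.36 and 0.53 in S. cerevisiae after alpha factor. The S. cerevisiae arrays lay above all others. SUT1 stood at −0.13 ± 0.167 in S. mikatae (adjusted p = 0.172), fell in S. paradoxus (−0.42 ± 0.0374, n = 2, adjusted p = 0.00525) and rose in S. cerevisiae (0.41 ± 0.105, adjusted p = 0.00409). The difference from S. cerevisiae was −0.53 in S. mikatae (adjusted p = 0.00872) and −0.83 in S. paradoxus (adjusted p = 0.00193).

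**Figure D2:**
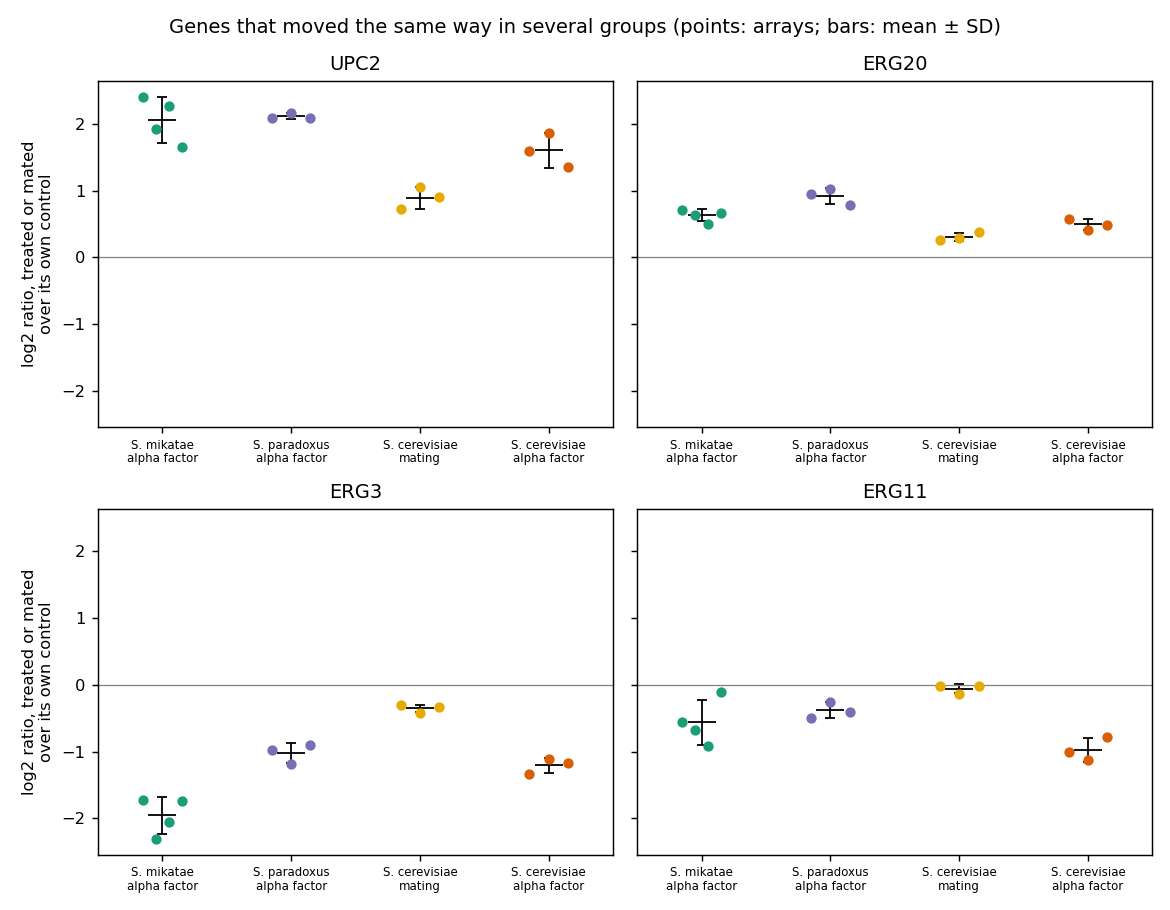
Log2 ratio (y axis) of UPC2, ERG20, ERG3 and ERG11 by group (x axis), with points for arrays and bars for the mean ± SD. UPC2 and ERG20 lie above 0 and ERG3 below 0 on every array, and the mating arrays of ERG11 lie between −0.14 and −0.01.

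ERG3 (YLR056W), the C-5 sterol desaturase of the late pathway, fell more than any other member in each alpha factor group. It read −1.73, −2.31, −2.05 and −1.73 in S. mikatae, −0.98, −1.19 and −0.91 in S. paradoxus, −0.31, −0.42 and −0.34 in mating and −1.34, −1.12 and −1.16 in S. cerevisiae after alpha factor. The S. mikatae arrays lay below all others and the mating arrays above all others. ERG3 was 3.88-fold lower in S. mikatae (−1.95 ± 0.28, adjusted p = 5.42e-10), 2.03-fold lower in S. paradoxus (−1.02 ± 0.146, adjusted p = 2.58e-06), 1.28-fold lower in mating (−0.35 ± 0.0565, adjusted p = 0.0106) and 2.31-fold lower in S. cerevisiae after alpha factor (−1.21 ± 0.117, adjusted p = 1.82e-06). In S. mikatae it ranked 6 from the bottom of 4367 ORFs. The mating call was lost without mating array 2 (adjusted p = 0.0664) and after quantile normalization (0.0643).

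The fall of ERG3 was larger in S. mikatae than in S. paradoxus (difference −0.93, −1.22 to −0.65, adjusted p = 0.000354) and than in S. cerevisiae (−0.75, −1.03 to −0.46, adjusted p = 0.00202). It was smaller in mating than in S. cerevisiae after alpha factor (0.85, 0.55 to 1.15, adjusted p = 0.000867). S. paradoxus minus S. cerevisiae was 0.18 (−0.12 to 0.49, adjusted p = 0.405).

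The genes on either side of ERG3 were looked at after their values had been seen. SPT8, a SAGA subunit, fell in S. mikatae (−1.28 ± 0.444), S. paradoxus (−0.49 ± 0.0313, n = 2) and S. cerevisiae after alpha factor (−0.46 ± 0.0744), and stood at −0.28 ± 0.0404 in mating. MNL2, a mannosidase-like protein, fell in S. mikatae (−0.32 ± 0.382, n = 3), S. paradoxus (−0.50 ± 0.175, n = 2) and S. cerevisiae after alpha factor (−0.39 ± 0.133), and stood at −0.11 ± 0.0732 in mating. SPT8 lost its S. cerevisiae call without any 1 of the 3 arrays (adjusted p up to 0.107), and its S. paradoxus call under scaling (0.0548). MNL2 lost its S. mikatae call without array 2 (−0.10, adjusted p = 0.417), with the replicate block (0.0731), with array weights (0.0707) and when only the arrays compared were fitted (0.104), and its S. cerevisiae call without array 1 (0.0862) or 3 (0.138).

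ERG11 (YHR007C), the heme-containing lanosterol demethylase that azole drugs inhibit, also fell in all 3 species. It read −0.55, −0.68, −0.91 and −0.10 in S. mikatae, −0.49, −0.26 and −0.40 in S. paradoxus, −0.02, −0.14 and −0.01 in mating and −1.01, −1.13 and −0.79 in S. cerevisiae after alpha factor. All 13 arrays were below 0, with the S. mikatae arrays spread widest. The change was −0.56 ± 0.339 in S. mikatae (adjusted p = 0.000358), −0.38 ± 0.117 in S. paradoxus (adjusted p = 0.0139), −0.06 ± 0.0713 in mating (adjusted p = 0.718) and −0.97 ± 0.174 in S. cerevisiae after alpha factor (adjusted p = 4.48e-05). The S. paradoxus call was lost without its array 1 (adjusted p = 0.0895) or 3 (0.0544). Mating exceeded alpha factor in S. cerevisiae by 0.92 (0.58 to 1.26, adjusted p = 0.00128). S. paradoxus exceeded S. cerevisiae by 0.59 (adjusted p = 0.0234), a call lost without S. paradoxus array 2 (0.0801) or S. cerevisiae array 1 (0.0683) or 2 (0.0755).

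ERG4, which makes the last step to ergosterol, fell in S. mikatae (−0.43 ± 0.0716, adjusted p = 0.00146), in S. paradoxus (−0.46 ± 0.325, adjusted p = 0.00302) and in S. cerevisiae after alpha factor (−0.34 ± 0.135, adjusted p = 0.0247). Its S. cerevisiae call was lost without array 2 (adjusted p = 0.0859) or 3 (0.154). Without S. paradoxus array 1 the ERG4 change there was −0.30 (adjusted p = 0.0415). None of its differences between species passed.

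The early genes up to farnesyl diphosphate differed from one another. ERG20 (YJL167W), farnesyl diphosphate synthase, read 0.71, 0.63, 0.50 and 0.67 in S. mikatae, 0.94, 1.03 and 0.78 in S. paradoxus, 0.26, 0.29 and 0.38 in mating and 0.58, 0.41 and 0.48 in S. cerevisiae after alpha factor. Every array was above 0, with the S. paradoxus arrays highest and the mating arrays lowest. The rise was 1.55-fold in S. mikatae (0.63 ± 0.0895, adjusted p = 1.04e-06), 1.89-fold in S. paradoxus (0.92 ± 0.123, adjusted p = 1.48e-07), 1.24-fold in mating (0.31 ± 0.0599, adjusted p = 0.00231) and 1.41-fold in S. cerevisiae after alpha factor (0.49 ± 0.0833, adjusted p = 0.000146). S. paradoxus exceeded S. cerevisiae by 0.43 (0.22 to 0.63, adjusted p = 0.0082), which did not pass when arrays were scaled to a common spread (0.23, adjusted p = 0.127) or quantile-normalized (0.30, adjusted p = 0.0697). S. mikatae minus S. paradoxus was −0.29 (adjusted p = 0.0464), a call lost without any 1 of the S. mikatae arrays (adjusted p up to 0.117), without S. paradoxus array 1 (0.128) or 2 (0.16), and under scaling (0.289). Beside ERG20 on the chromosome, QCR8, a subunit of the respiratory chain, rose in all 4 groups by 0.53 ± 0.0996, 0.54 ± 0.0247, 0.30 ± 0.1 and 0.35 ± 0.132 in the same order. SET2, a histone methyltransferase on the other side, stood at 0.05 ± 0.0892 in S. mikatae, 0.07 ± 0.059 in S. paradoxus and 0.03 ± 0.122 in S. cerevisiae after alpha factor, and fell in mating (−0.35 ± 0.107, adjusted p = 0.00106). Both neighbours were chosen after their values had been seen.

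MVD1 (YNR043W), mevalonate diphosphate decarboxylase, went opposite ways between species. It read −0.58, −0.42, −0.72 and −0.37 in S. mikatae, 0.75, 0.83 and 0.56 in S. paradoxus and 0.22, 0.68 and 0.21 in S. cerevisiae after alpha factor. The S. mikatae arrays were all below 0 and the others all above. MVD1 fell in S. mikatae (−0.52 ± 0.158, adjusted p = 0.000365) and rose in S. paradoxus (0.72 ± 0.14, adjusted p = 0.000119) and in S. cerevisiae (0.37 ± 0.267, adjusted p = 0.0172), the last call being lost without S. cerevisiae array 2 (0.22, adjusted p = 0.15). S. mikatae minus S. cerevisiae was −0.89 (−1.19 to −0.60, adjusted p = 0.000899) and S. mikatae minus S. paradoxus −1.24 (−1.53 to −0.95, adjusted p = 7.02e-05). Beside MVD1 on the chromosome, AGA1 stood at 0.17 ± 0.375 in S. mikatae (adjusted p = 0.339). AGA1 rose in S. paradoxus (3.82 ± 0.218) and in S. cerevisiae after alpha factor (3.67 ± 0.375). COQ2, on the other side, stood at 0.76 ± 0.24, 1.29 ± 0.544 and −0.07 ± 0.0797 in the same order of species. Both were chosen after their values had been seen, and a link to MVD1 was not tested.

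ERG8 (YMR220W), phosphomevalonate kinase, read −0.02, −0.29, 0.01 and 0.14 in S. mikatae, 0.56, 0.70 and 0.33 in S. paradoxus, −0.10, 0.01 and 0.02 in mating and −0.04, 0.01 and 0.05 in S. cerevisiae after alpha factor. The S. paradoxus arrays lay above all others. ERG8 rose in S. paradoxus (0.53 ± 0.191, adjusted p = 0.000161) and stood at −0.04 ± 0.177 in S. mikatae, −0.02 ± 0.0676 in mating and 0.01 ± 0.0472 in S. cerevisiae after alpha factor. S. paradoxus exceeded S. cerevisiae by 0.52 (0.27 to 0.78, adjusted p = 0.00884), and S. mikatae minus S. paradoxus was −0.57 (adjusted p = 0.00364).

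ERG12, mevalonate kinase, rose in S. mikatae (0.42 ± 0.232, n = 3, adjusted p = 0.00376) and S. paradoxus (0.43 ± 0.249, adjusted p = 0.00337), and stood at 0.18 ± 0.115 in mating and 0.12 ± 0.101 in S. cerevisiae after alpha factor. None of its differences between groups passed, and its S. mikatae call was lost without array 4 (adjusted p = 0.0526). IDI1 (YPL117C), isopentenyl diphosphate isomerase, read −0.18, −0.26, −0.19 and −0.31 in S. mikatae, −0.87, −0.35 and −0.59 in S. paradoxus, −0.30, 0.07 and −0.39 in mating and −0.17, −0.16 and −0.46 in S. cerevisiae after alpha factor. All arrays but 1 of mating were below 0. IDI1 fell in S. mikatae (−0.24 ± 0.0601, adjusted p = 0.0393) and S. paradoxus (−0.60 ± 0.257, adjusted p = 0.00026), and stood at −0.21 ± 0.241 in mating and −0.26 ± 0.174 in S. cerevisiae after alpha factor (adjusted p = 0.0644), where it passed as a fall with the replicate block (−0.26), scaling (−0.28), quantile normalization (−0.29) and array weights (−0.35). Its S. mikatae call was lost without any 1 of the 4 arrays (adjusted p up to 0.124).

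HMG1 (YML075C) and HMG2 (YLR450W), the isozymes of HMG-CoA reductase, stood apart in S. cerevisiae. HMG1 read 0.59, 0.42 and 0.97 in mating and −0.21, 0.40 and −0.08 in S. cerevisiae after alpha factor. HMG2 read −0.15, −0.22 and −0.26 on 3 S. mikatae arrays, −0.35, −0.56 and −0.38 in mating and −0.73, −0.42 and −0.96 in S. cerevisiae after alpha factor. HMG2 was below 0 on every array, and HMG1 above 0 on every mating array. HMG1 rose in mating (0.66 ± 0.284, adjusted p = 0.00232) and stood at 0.04 ± 0.318 after alpha factor (adjusted p = 0.865). HMG2 stood at −0.21 ± 0.0557 in S. mikatae (n = 3, adjusted p = 0.0886), and fell in mating (−0.43 ± 0.114, adjusted p = 0.00302) and in S. cerevisiae after alpha factor (−0.70 ± 0.268, adjusted p = 0.000382).

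The mating minus alpha factor difference of HMG1 was 0.63 (0.22 to 1.03, adjusted p = 0.0387), lost without mating array 1 (0.0673) or 3 (0.122) or alpha factor array 1 (0.112) or 3 (0.121). That of HMG2 was 0.27 (−0.01 to 0.56, adjusted p = 0.17). S. mikatae minus S. cerevisiae was 0.49 for HMG2 (adjusted p = 0.0331), lost without any 1 of the 3 S. mikatae arrays that measured it (adjusted p up to 0.0957) or without S. cerevisiae array 1 (0.106) or 3 (0.126). Related sequences such as HMG1 and HMG2, UPC2 and ECM22, or ARE1 and ARE2 can cross-hybridise on cDNA probes. ERG10, acetoacetyl-CoA thiolase, stood at −0.25 ± 0.341 in S. mikatae, 0.25 ± 0.173 in S. paradoxus and −0.15 ± 0.218 in S. cerevisiae after alpha factor. ERG13, HMG-CoA synthase, stood at 0.00436 ± 0.0365 in mating and −0.16 ± 0.0343 in S. cerevisiae after alpha factor.

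**Figure D3:**
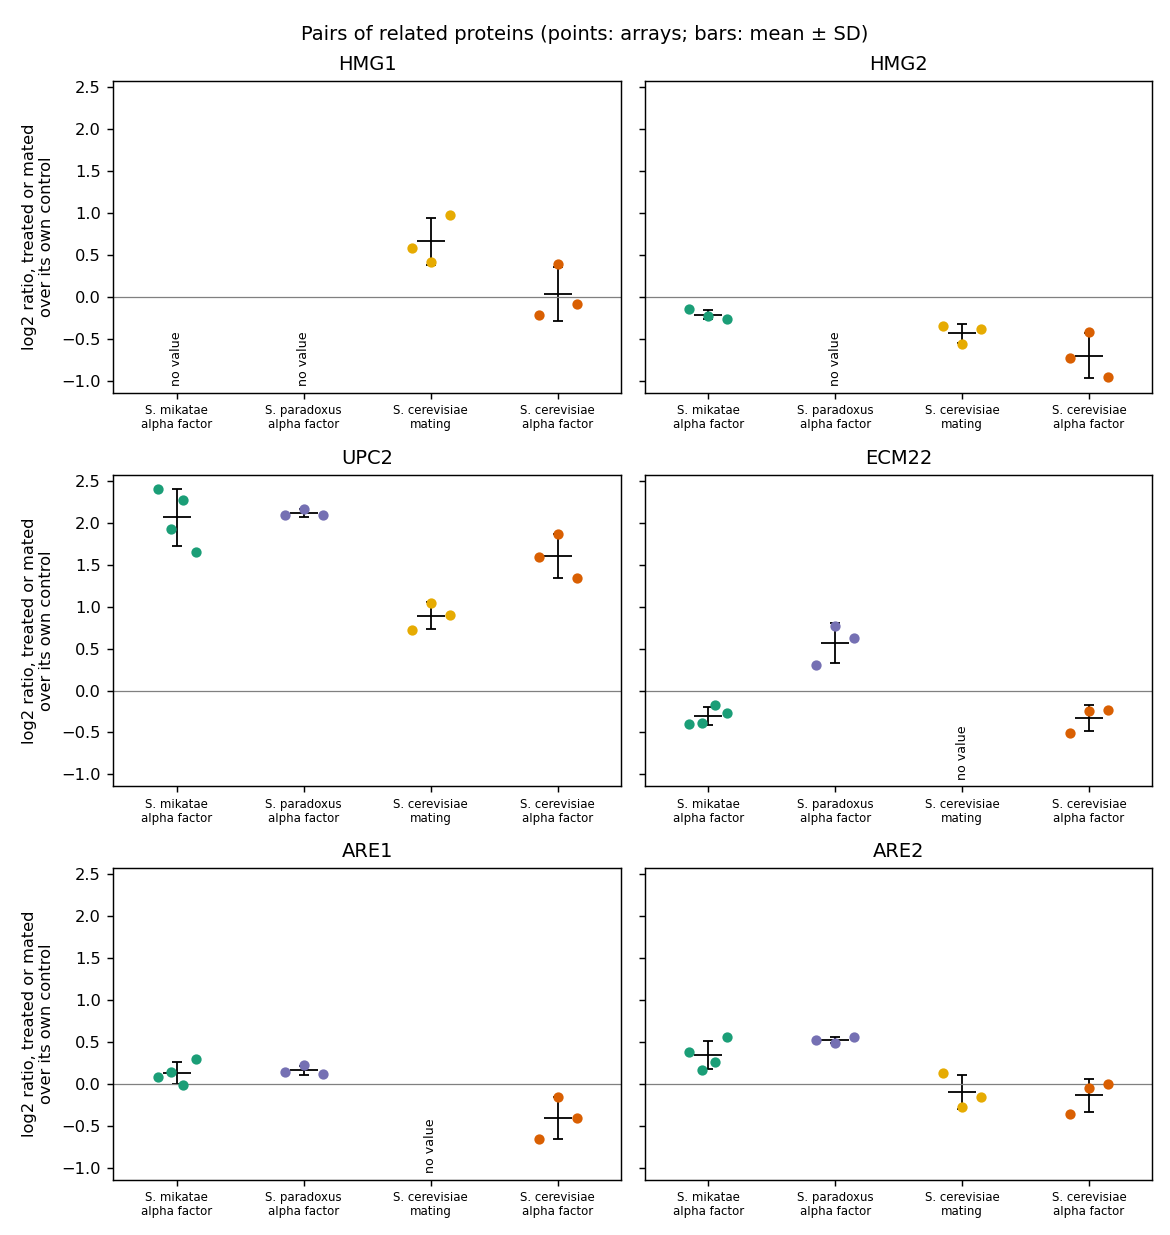
Log2 ratio (y axis) of the pairs HMG1 and HMG2, UPC2 and ECM22, and ARE1 and ARE2 by group (x axis), with points for arrays, bars for the mean ± SD, and groups without a value marked. HMG1 lies above HMG2 on each S. cerevisiae array, and UPC2 lies above ECM22 on every array that measured both.

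At the branch to sterols, ERG9 (YHR190W), squalene synthase, read 0.52, 0.71, 0.36 and 0.64 in S. mikatae, 0.68, 0.89 and 0.59 in S. paradoxus, −0.39, −0.12 and −0.18 in mating and 0.16, 0.13 and 0.32 in S. cerevisiae after alpha factor. The alpha factor arrays were all above 0 and the mating arrays all below. ERG9 rose in S. mikatae (0.56 ± 0.153, adjusted p = 2.4e-05) and S. paradoxus (0.72 ± 0.153, adjusted p = 1.16e-05), fell in mating (−0.23 ± 0.143, adjusted p = 0.0377) and stood at 0.20 ± 0.0988 in S. cerevisiae after alpha factor (adjusted p = 0.0769). The mating call was lost without any 1 of the mating arrays (adjusted p up to 0.262). The ratio in S. paradoxus was above that in S. cerevisiae by 0.51 (0.26 to 0.77, adjusted p = 0.00942). S. mikatae minus S. cerevisiae was 0.35 (0.11 to 0.59, adjusted p = 0.0522), which did not pass but did in 3 of 16 alternatives. S. mikatae minus S. paradoxus was −0.16 (adjusted p = 0.384). Mating minus alpha factor was −0.43 (−0.69 to −0.18, adjusted p = 0.0196), lost without mating array 1 (0.0757) or alpha factor array 3 (0.0838).

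ERG1, squalene epoxidase, fell in S. mikatae (−0.35 ± 0.268, adjusted p = 0.00518) and stood at −0.09 ± 0.125 in S. paradoxus and −0.23 ± 0.0389 in S. cerevisiae after alpha factor. ERG7, lanosterol synthase, rose in S. paradoxus (0.42 ± 0.121, adjusted p = 0.00742) and stood at −0.04 ± 0.286 in S. mikatae and −0.05 ± 0.134 in S. cerevisiae after alpha factor. None of the differences of ERG1 or ERG7 between species passed.

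ERG24 (YNL280C), the C-14 reductase, read 0.17 on its S. mikatae array, 1.01, 0.38 and 0.36 in S. paradoxus and −0.32, −0.02 and −0.03 in S. cerevisiae after alpha factor. The S. paradoxus arrays were all above 0 and the S. cerevisiae arrays all below. ERG24 rose in S. paradoxus (0.58 ± 0.37, adjusted p = 0.0046) and stood at −0.12 ± 0.171 in S. cerevisiae after alpha factor. Without S. paradoxus array 1 the rise there was 0.37 (adjusted p = 0.025). The difference was 0.71 (adjusted p = 0.0287), lost without S. paradoxus array 1 (0.0554) or S. cerevisiae array 1 (0.0961) or 3 (0.0602).

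Of the enzymes that remove the C-4 methyl groups, ERG25, the methyl oxidase, stood at −0.05 ± 0.138 in S. mikatae, −0.17 ± 0.117 in S. paradoxus and 0.13 ± 0.223 in S. cerevisiae after alpha factor. ERG26, the C-3 dehydrogenase, rose in S. mikatae (0.17 ± 0.0965, adjusted p = 0.0388), S. paradoxus (0.41 ± 0.12, adjusted p = 0.000436) and mating (0.33 ± 0.124, adjusted p = 0.00277), and stood at 0.16 ± 0.116 in S. cerevisiae after alpha factor (adjusted p = 0.103). Its S. mikatae call was lost without array 1 (0.0676), 2 (0.149) or 4 (0.117), and none of its differences between groups passed.

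ERG27 (YLR100W), the keto reductase of this complex, read −0.11, −0.08, −0.15 and 0.32 in S. mikatae, 0.29, 0.30 and 0.22 in S. paradoxus, −0.28, −0.19 and −0.47 in mating and −0.17, −0.18 and −0.22 in S. cerevisiae after alpha factor. Both S. cerevisiae groups were below 0 on every array, and S. mikatae array 4 lay apart from the other 3. ERG27 rose in S. paradoxus (0.27 ± 0.0442, adjusted p = 0.0162), fell in mating (−0.31 ± 0.141, adjusted p = 0.00818) and stood at −0.00456 ± 0.217 in S. mikatae and −0.19 ± 0.028 in S. cerevisiae after alpha factor. These calls were lost without S. paradoxus array 1 (0.0714) or 2 (0.0713) and without mating array 3 (0.0896). S. paradoxus exceeded S. cerevisiae by 0.46 (adjusted p = 0.0178), lost without S. paradoxus array 1 (0.0539) or 2 (0.0505) or S. cerevisiae array 3 (0.0572).

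ERG28 (YER044C), the scaffold that holds these enzymes together, rose in both S. cerevisiae designs. It read −0.11, −0.09, −0.21 and −0.16 in S. mikatae, −0.42, −0.15 and −0.37 in S. paradoxus, 1.21, 0.90 and 0.65 in mating and 0.64, 1.22 and 0.29 in S. cerevisiae after alpha factor. All S. cerevisiae arrays were above 0 and all arrays of the other species below. The rise was 1.89-fold in mating (0.92 ± 0.282, adjusted p = 6.91e-05) and 1.65-fold after alpha factor (0.72 ± 0.473, adjusted p = 0.0017), while ERG28 stood at −0.15 ± 0.0548 in S. mikatae and −0.31 ± 0.145 in S. paradoxus (adjusted p = 0.0705). The S. paradoxus change passed as a fall with the replicate block (−0.31), with quantile normalization (−0.28) and when only the arrays compared were fitted (−0.31). Without S. cerevisiae alpha factor array 2 the ERG28 rise after alpha factor was 0.46 on the log2 scale (adjusted p = 0.0158). The difference from S. cerevisiae after alpha factor was −0.86 in S. mikatae (−1.25 to −0.48, adjusted p = 0.00556) and −1.03 in S. paradoxus (−1.44 to −0.62, adjusted p = 0.00257).

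ERG6 (YML008C), the C-24 methyltransferase that makes the fungal side chain, read 0.01, 0.000853, −0.15 and 0.13 in S. mikatae, 1.01, 0.52 and 0.42 in S. paradoxus and −0.29, −0.26 and −0.06 in S. cerevisiae after alpha factor. The S. paradoxus arrays lay above all others. ERG6 rose in S. paradoxus (0.65 ± 0.316, adjusted p = 0.000268) and stood at −0.0034 ± 0.115 in S. mikatae and −0.20 ± 0.121 in S. cerevisiae after alpha factor. S. paradoxus exceeded S. cerevisiae by 0.85 (0.53 to 1.17, adjusted p = 0.00241), and S. mikatae minus S. paradoxus was −0.65 (adjusted p = 0.00675).

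ERG2 (YMR202W), the C-8 isomerase, read −0.02, −0.09, −0.10 and 0.18 in S. mikatae, 0.28, 0.35 and 0.25 in S. paradoxus, 0.06, 0.26 and 0.16 in mating and −0.20, −0.19 and −0.18 in S. cerevisiae after alpha factor. The S. cerevisiae alpha factor arrays lay below all others. ERG2 rose in S. paradoxus (0.29 ± 0.0521, adjusted p = 0.00285), fell in S. cerevisiae after alpha factor (−0.19 ± 0.013, adjusted p = 0.0434) and stood at −0.01 ± 0.129 in S. mikatae and 0.16 ± 0.0997 in mating. The S. cerevisiae call was lost without any 1 of its 3 arrays (adjusted p up to 0.135). The ERG2 ratio was higher in S. paradoxus than in S. cerevisiae by 0.48 (adjusted p = 0.00378). S. mikatae minus S. paradoxus was −0.30 (adjusted p = 0.0386), lost without any 1 of the S. paradoxus arrays (adjusted p up to 0.118) or without S. mikatae array 1 (0.0787), 2 (0.0771) or 3 (0.0936). Mating minus alpha factor was 0.35 (0.15 to 0.56, adjusted p = 0.0201), lost without mating array 2 (0.0773) or 3 (0.051) or alpha factor array 1 (0.0529) or 3 (0.0554).

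ERG5 (YMR015C), the C-22 desaturase, read −0.17, −0.50, −0.49 and 0.03 in S. mikatae, 0.37 and 0.21 on 2 S. paradoxus arrays, 0.60, 0.38 and 0.56 in mating and 0.11, 0.25 and 0.24 in S. cerevisiae after alpha factor. All arrays outside S. mikatae were above 0, and 3 of the 4 S. mikatae arrays below. ERG5 fell in S. mikatae (−0.28 ± 0.259, adjusted p = 0.014), rose in mating (0.51 ± 0.12, adjusted p = 0.000779) and stood at 0.29 ± 0.108 in S. paradoxus (n = 2) and 0.20 ± 0.0762 in S. cerevisiae after alpha factor. The S. mikatae call was lost without array 2 (0.0835) or 3 (0.0846). S. mikatae minus S. cerevisiae was −0.48 (adjusted p = 0.026), lost without any 1 of the S. cerevisiae arrays (adjusted p up to 0.0856) or without S. mikatae array 2 (0.0557) or 3 (0.0672), and S. mikatae minus S. paradoxus was −0.57 (adjusted p = 0.0185).

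CYB5 (YNL111C), cytochrome b5, read −0.11, 0.22, −0.12 and −0.03 in S. mikatae, 0.21, 0.21 and 0.23 in S. paradoxus, 0.04, 0.36 and 0.13 in mating and −0.46, −0.54 and −0.41 in S. cerevisiae after alpha factor. The S. cerevisiae alpha factor arrays lay below all others. CYB5 rose in S. paradoxus (0.22 ± 0.0143, adjusted p = 0.0331), fell in S. cerevisiae after alpha factor (−0.47 ± 0.0673, adjusted p = 0.000663) and stood at −0.01 ± 0.16 in S. mikatae and 0.18 ± 0.166 in mating. The S. paradoxus call was lost without any 1 of its arrays (adjusted p up to 0.104) and under scaling (0.0532) or quantile normalization (0.062). The difference from S. cerevisiae after alpha factor was 0.46 in S. mikatae (adjusted p = 0.00988), 0.69 in S. paradoxus (adjusted p = 0.00112) and 0.65 in mating (adjusted p = 0.00113). NCP1, the P450 reductase, fell in S. cerevisiae after alpha factor (−0.40 ± 0.219, adjusted p = 0.0322), a call lost without array 1 (0.199) or 3 (0.0906), and stood at −0.23 ± 0.253 in S. mikatae (n = 3), 0.11 ± 0.11 in S. paradoxus and −0.19 ± 0.367 in mating.

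The ratios of the sterol acyl transferases and of the acetyl transferase were higher in S. mikatae and S. paradoxus than in S. cerevisiae after alpha factor. ARE2 (YNR019W), the main sterol acyl transferase, read 0.38, 0.17, 0.27 and 0.56 in S. mikatae, 0.52, 0.49 and 0.56 in S. paradoxus, 0.14, −0.27 and −0.15 in mating and −0.36, −0.05 and 0.000235 in S. cerevisiae after alpha factor. ARE1 (YCR048W), the second sterol acyl transferase, read 0.08, 0.15, −0.02 and 0.30 in S. mikatae, 0.14, 0.23 and 0.12 in S. paradoxus and −0.65, −0.15 and −0.41 in S. cerevisiae. ATF2 (YGR177C) read 0.00417, 0.04, −0.25 and 0.02 in S. mikatae, −0.11, −0.18 and −0.06 in S. paradoxus and −0.99, −0.27 and −0.71 in S. cerevisiae. For each gene the S. mikatae and S. paradoxus arrays all lay above those of S. cerevisiae after alpha factor, by a narrow margin for ATF2 in S. mikatae.

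ARE2 rose in S. mikatae (0.35 ± 0.17, adjusted p = 0.00277) and S. paradoxus (0.53 ± 0.034, adjusted p = 0.00039), and stood at −0.10 ± 0.208 in mating and −0.13 ± 0.194 in S. cerevisiae after alpha factor. ARE1 stood at 0.13 ± 0.133 in S. mikatae and 0.16 ± 0.0567 in S. paradoxus, and fell in S. cerevisiae (−0.40 ± 0.25, adjusted p = 0.00645), a call lost without array 1 (0.0578). ATF2 stood at −0.05 ± 0.137 in S. mikatae and −0.12 ± 0.0617 in S. paradoxus, and fell in S. cerevisiae (−0.66 ± 0.367, adjusted p = 0.00128).

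The S. mikatae minus S. cerevisiae difference was 0.48 for ARE2 (adjusted p = 0.0201), 0.53 for ARE1 (adjusted p = 0.0128) and 0.61 for ATF2 (adjusted p = 0.0173). The S. paradoxus minus S. cerevisiae difference was 0.66 for ARE2 (adjusted p = 0.00388), 0.57 for ARE1 (adjusted p = 0.0112) and 0.54 for ATF2 (adjusted p = 0.0367). S. cerevisiae array 1 was the lowest for each gene. Without it the S. mikatae differences lost their calls, at 0.119 for ARE2, 0.0687 for ARE1 and 0.0876 for ATF2, as did the S. paradoxus difference of ATF2 (0.135). ARE2 also lost its S. mikatae difference without S. mikatae array 4 (0.0571). ATF2 lost its S. mikatae difference without S. cerevisiae array 3 (0.0636), and its S. paradoxus difference without S. cerevisiae array 3 (0.0998) or any 1 of the S. paradoxus arrays (adjusted p up to 0.0896).

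**Figure D4:**
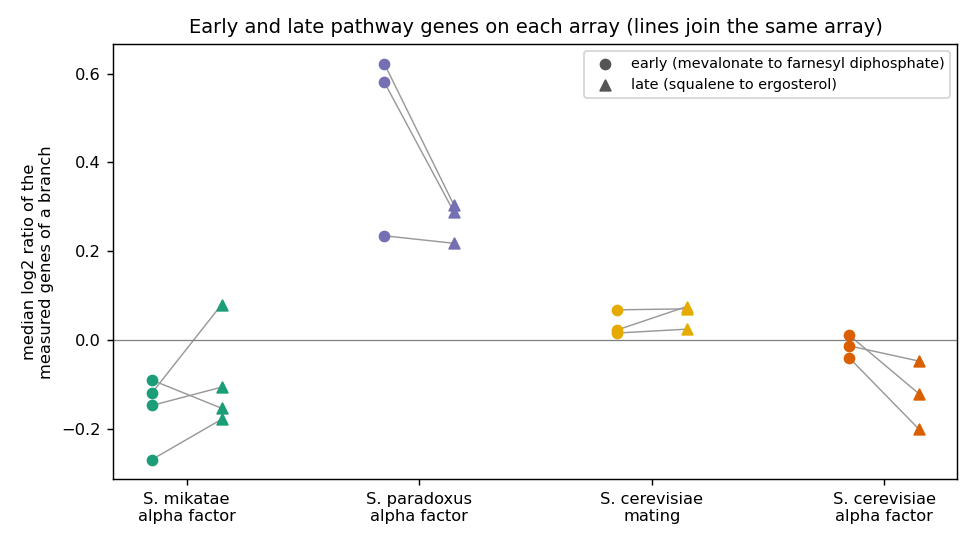
Median log2 ratio (y axis) of the measured early genes (circles) and late genes (triangles) on each array, by group (x axis), with a line joining the medians of an array. All S. paradoxus medians lie above those of the other groups.

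Early and late branches were set side by side as medians over their measured genes on each array, without a test. The early median was −0.16 ± 0.0788 in S. mikatae, 0.48 ± 0.213 in S. paradoxus, 0.03 ± 0.0285 in mating and −0.01 ± 0.0255 in S. cerevisiae after alpha factor. The late median was −0.09 ± 0.117 in S. mikatae, 0.27 ± 0.0456 in S. paradoxus, 0.06 ± 0.028 in mating and −0.12 ± 0.0769 in S. cerevisiae after alpha factor. Both branches were thus highest in S. paradoxus. Early minus late was −0.07 ± 0.109 in S. mikatae, 0.21 ± 0.167 in S. paradoxus, −0.02 ± 0.0275 in mating and 0.11 ± 0.0663 in S. cerevisiae after alpha factor. It was above 0 on each S. paradoxus and S. cerevisiae alpha factor array and below 0 on each mating array. Different genes stand behind these medians, since 7, 6, 7 and 9 early genes were tested in the groups in that order. The sign in S. mikatae and in mating turned with the genes counted. Over the 4 early and 8 late genes tested in every group, a choice made after seeing the data, early minus late was 0.21 ± 0.106 in S. mikatae, 0.21 ± 0.167 in S. paradoxus, 0.03 ± 0.0752 in mating and 0.10 ± 0.0658 in S. cerevisiae after alpha factor. It was then above 0 on all 4 S. mikatae arrays and on 2 of the 3 mating arrays. The early medians of these genes were 0.14 ± 0.195, 0.48 ± 0.213, 0.09 ± 0.101 and 0.07 ± 0.069, and the late medians −0.07 ± 0.123, 0.27 ± 0.0456, 0.06 ± 0.028 and −0.03 ± 0.00651 in the same order of groups.

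S. paradoxus differed from S. cerevisiae after alpha factor in 15 of 28 members, a share of 53.6% against 17.1% of all ORFs tested. Of these, 13 were higher (against 9.5% of all ORFs) and 2 lower (against 7.61%), namely ERG28 and SUT1. The median member difference was 0.46, against −0.00981 for all ORFs. The arrays of these groups did not overlap for 19 of the 28 members, against 39.1% of all ORFs. Members higher in S. paradoxus came from each role, with ERG8 and ERG20 of the early genes, ERG9, ERG11, ERG24, ERG27, ERG6 and ERG2 of the late genes, the electron donor CYB5, the regulator ECM22, and ARE1, ARE2 and ATF2.

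S. mikatae differed from S. cerevisiae after alpha factor in 10 of 28 members, 35.7% against 12.5% of all ORFs tested. There were 5 higher (HMG2, CYB5, ARE1, ARE2 and ATF2, against 6.77% of all ORFs) and 5 lower (MVD1, ERG28, ERG3, ERG5 and SUT1, against 5.76%). The median member difference was 0.08, and 13 members did not overlap, against 27.1% of all ORFs. Without S. cerevisiae array 1 the count was 5, and the calls over all ORFs fell as well. S. mikatae differed from S. paradoxus in 8 of 27 members, 29.6% against 14.5% of all ORFs, with 0 higher (against 6.48%) and 8 lower (against 8.04%), namely ERG8, MVD1, ERG20, ERG6, ERG2, ERG3, ERG5 and ECM22. The median member difference was −0.24, and 11 members did not overlap, against 26.9% of all ORFs. Without S. paradoxus array 1 the count was 5, and ERG5 could not be tested there, since a single S. paradoxus array then had a value for it. Calls over all ORFs in that fit are not given here. The comparisons between species share arrays.

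**Figure D5:**
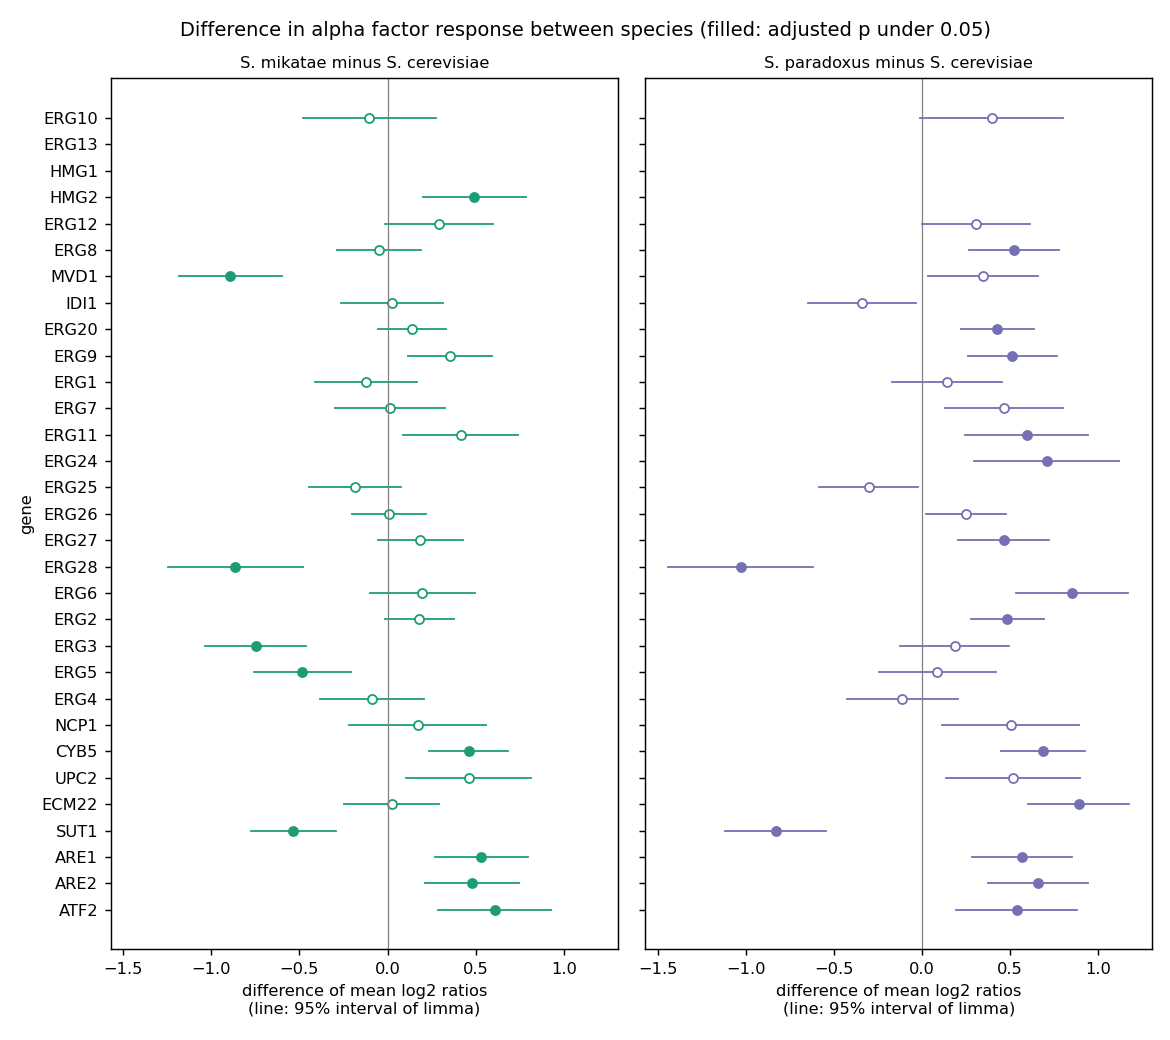
Difference in mean log2 ratio (x axis, with its 95% interval) between S. mikatae and S. cerevisiae (left) and between S. paradoxus and S. cerevisiae (right) after alpha factor for each gene (y axis), with filled points for genes that passed the test. The right panel has 13 filled points above 0 and 2 below, and the left panel has 5 on either side.

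Mating differed from alpha factor in S. cerevisiae in 7 of 19 members, 36.8% against 18.5% of all ORFs tested. HMG1, ERG11, ERG2, ERG3 and CYB5 were higher in mating (5 members, against 10.2% of all ORFs), and ERG9 and UPC2 lower (2 members, against 8.33%). The median member difference was 0.16. The arrays did not overlap for 10 members, against 40.3% of all ORFs. Without S. cerevisiae alpha factor array 3 the count was 4, and the calls over all ORFs fell as well.

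Other genes of sterol metabolism were taken as lists. Of 27 genes of sterol regulation, degradation and transport, 7 rose and 5 fell of 20 tested in S. mikatae, 8 rose and 6 fell of 21 in S. paradoxus, 4 rose and 2 fell of 15 in mating, and 5 rose and 7 fell of 26 in S. cerevisiae after alpha factor. These are 60%, 66.7%, 40% and 46.2% of the genes tested, beside 48.7%, 49.3%, 41.2% and 33.6% of all ORFs, with mating near the background. NSG2, of the INSIG family that stabilises Hmg2, rose in S. mikatae (0.49 ± 0.111), S. paradoxus (0.58 ± 0.063), mating (0.24 ± 0.0707) and S. cerevisiae after alpha factor (0.25 ± 0.0397), the mating call being lost without mating array 2 (adjusted p = 0.0644). OSH6, a lipid transfer protein, also rose in S. mikatae (0.69 ± 0.126), S. paradoxus (0.51 ± 0.131), mating (0.22 ± 0.0433) and S. cerevisiae after alpha factor (0.56 ± 0.0258), the mating call being lost without any 1 of its arrays (adjusted p up to 0.106). HES1, an oxysterol-binding protein homologue, fell in S. mikatae (−0.80 ± 0.272), S. paradoxus (−0.55 ± 0.239) and S. cerevisiae after alpha factor (−0.38 ± 0.137), the last call being lost without array 2 (0.116) or 3 (0.151). PDR16, a phosphatidylinositol transfer protein tied to sterol makeup, fell in S. mikatae (−0.85 ± 0.345) and S. cerevisiae after alpha factor (−1.29 ± 0.28) and stood at −0.06 ± 0.124 in S. paradoxus (n = 2), with a S. paradoxus minus S. cerevisiae difference of 1.23 (adjusted p = 0.00345).

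Of 5 genes of sterol ester hydrolysis, acetylation and deacetylation, 1 rose and 1 fell of 5 tested in S. mikatae, 2 rose and 0 fell of 5 in S. paradoxus, 0 rose and 2 fell of 3 in mating, and 1 rose and 3 fell of 5 in S. cerevisiae after alpha factor. These are 40%, 40%, 66.7% and 80% of few genes, beside 48.7%, 49.3%, 41.2% and 33.6% of all ORFs. YEH2, a sterol ester hydrolase, fell in S. mikatae (−0.31 ± 0.0714), mating (−0.43 ± 0.052) and S. cerevisiae after alpha factor (−0.29 ± 0.21), the last call being lost without array 2 (−0.17, adjusted p = 0.152), and stood at −0.16 ± 0.152 in S. paradoxus. ATF1, the acetyl transferase related to ATF2, fell in S. cerevisiae after alpha factor (−0.88 ± 0.551, or −0.57 without array 1) and stood at 0.13 ± 0.287 in S. mikatae and 0.09 ± 0.0233 in S. paradoxus (n = 2).

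Of 12 genes that draw on farnesyl diphosphate or its precursors, 5 rose and 1 fell of 12 tested in S. mikatae, 6 rose and 1 fell of 12 in S. paradoxus, 3 rose and 3 fell of 7 in mating, and 2 rose and 2 fell of 12 in S. cerevisiae after alpha factor. The shares called were 50%, 58.3%, 85.7% and 33.3%, beside 48.7%, 49.3%, 41.2% and 33.6% of all ORFs, so those in S. mikatae and in S. cerevisiae after alpha factor lay near the background. RAM1, a subunit of the farnesyl transferase that acts on a-factor, rose in S. mikatae (1.07 ± 0.07, n = 3) and S. paradoxus (1.32 ± 0.112), fell in mating (−0.19 ± 0.0816) and stood at 0.07 ± 0.0339 in S. cerevisiae after alpha factor. The mating call was lost without any 1 of its arrays (adjusted p up to 0.201), while the differences from S. cerevisiae after alpha factor passed in S. mikatae (adjusted p = 1.59e-05) and in S. paradoxus (1.25, adjusted p = 4.6e-06). COQ2, of ubiquinone synthesis, rose in S. mikatae (0.76 ± 0.24) and S. paradoxus (1.29 ± 0.544) and stood at −0.07 ± 0.0797 in S. cerevisiae after alpha factor. Its difference from S. cerevisiae was 0.83 in S. mikatae (adjusted p = 0.0198), lost without S. mikatae array 4 (0.0597) or S. cerevisiae array 1 (0.0558) or 3 (0.0711), and 1.36 in S. paradoxus (adjusted p = 0.00182). STE14, which methylates farnesylated a-factor, rose in S. paradoxus (0.62 ± 0.157), mating (0.92 ± 0.127) and S. cerevisiae after alpha factor (0.65 ± 0.0687), and stood at 0.09 ± 0.146 in S. mikatae, with a S. mikatae minus S. cerevisiae difference of −0.56 (adjusted p = 0.00345).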

How the data were processed

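The authors deposited 1 log ratio per ORF and array in the series value table, read here as log2. Background correction, normalization, centring, log base and direction are not stated in the sources used here, and signal intensities were not used. Deposited medians per array ran from −0.00931 to 0.00805, and the median of each array was subtracted. Symbols came from the RefSeq gene table, which named 5665 ORFs, 43 of these once a dash was put in. Sequences were not used here.

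One model with a mean per group was fitted to all 13 arrays with limma 3.58.1 in R 4.3.3, over ORFs with values on at least 2 arrays of every group in the comparison. Responses are group means against 0, species and mating differences are contrasts, tests are two-sided, and Benjamini-Hochberg adjustment ran over all ORFs tested, with calls under 0.05. Per the series design text, replicates are biological. Whether control RNA was separate for each array was not checked. The fit was also run on simulated data with independent noise for each ORF and array, which leaves out deviations shared between arrays. Its outcome is not given here, and no result rests on it.

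Members and gene lists were chosen with earlier results of these data known. All members are given. Array values are printed for members called with a mean of at least 0.5 in size, members called in a difference, and related pairs. Deviations of arrays from their group means were correlated between groups. Arrays with the same replicate number gave r from −0.262 to 0.336 (18 pairs, 2 above 0.1). Those with different numbers gave r from −0.338 to 0.382 (45 pairs, 9 above 0.1). The numbers were thus not treated as pairs, and the check does not show that arrays of different groups are independent. Alternatives were uncentred, rescaled or quantile-normalized ratios, looser and stricter rules on missing values, fits of the compared arrays alone, array weights, robust eBayes, the replicate number as a block, and each array left out.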

Additional observations from a re-analysis of the deposited data

Results flagged for a closer look

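On the 4 S. mikatae arrays, 1 array lay far from the others for ERG27 (array 4, gap over range 0.845) and for ATF2 (array 3, gap over range 0.877). Chance flags about 1 in 20 groups in this way, and 25 members had values on all 4 arrays.

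The other entries are differences between groups that passed the test in limma. For S. paradoxus minus S. cerevisiae they were 0.52 for ERG8, 0.43 for ERG20, 0.51 for ERG9, 0.59 for ERG11, 0.71 for ERG24, 0.46 for ERG27, 0.85 for ERG6 and 0.48 for ERG2. They were 0.69 for CYB5, 0.89 for ECM22, 0.57 for ARE1, 0.66 for ARE2, 0.54 for ATF2, −1.03 for ERG28 and −0.83 for SUT1. Of these 15 calls, 11 were lost in no fit that left 1 array out, and those of ERG11, ERG24, ERG27 and ATF2 were lost in some. The 11 include SUT1, which could not be tested without S. paradoxus array 1 or 3, since a single S. paradoxus array with a value was then left.

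For S. mikatae minus S. cerevisiae they were 0.49 for HMG2, 0.46 for CYB5, 0.53 for ARE1, 0.48 for ARE2, 0.61 for ATF2, −0.89 for MVD1, −0.86 for ERG28, −0.75 for ERG3, −0.48 for ERG5 and −0.53 for SUT1. Those of MVD1, ERG28, ERG3, CYB5 and SUT1 held without each array in turn. For S. mikatae minus S. paradoxus they were −0.57 for ERG8, −1.24 for MVD1, −0.29 for ERG20, −0.65 for ERG6, −0.30 for ERG2, −0.93 for ERG3, −0.57 for ERG5 and −0.87 for ECM22. The calls of ERG20 and ERG2 did not hold without each array in turn. That of ERG5 held where it was tested, but it could not be tested without S. paradoxus array 1 or 3. A single S. paradoxus array with a value was then left. The other calls held without each array in turn.

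For mating minus alpha factor in S. cerevisiae they were 0.63 for HMG1, 0.92 for ERG11, 0.35 for ERG2, 0.85 for ERG3, 0.65 for CYB5, −0.43 for ERG9 and −0.71 for UPC2. ERG11, ERG3, CYB5 and UPC2 held without each array in turn.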

How the results depend on the processing

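With the sign of all ratios turned, each rise becomes a fall. No called member changed direction under the alternatives run. For S. mikatae minus S. paradoxus, 8 members were called, beside 14.5% of all ORFs. The count became 5 when only the arrays compared were fitted and 14 with array weights. The share of all ORFs called under these settings is not given here, so the counts are not read as a trait of the members. The cause was not tested. Leaving out each array, which leaves fewer samples, gave 11 to 13 calls in S. mikatae, 16 to 18 in S. paradoxus, 8 to 9 in mating and 11 to 12 in S. cerevisiae, 5 to 10 for S. mikatae minus S. cerevisiae, 11 to 16 for S. paradoxus minus S. cerevisiae, 5 to 10 for S. mikatae minus S. paradoxus and 4 to 8 for mating minus alpha factor. Calls over all ORFs also fell in the fits without 1 array given below, so these ranges are not read as a trait of the members. Over all ORFs, array weights moved the calls to 1246 from 807 for S. paradoxus minus S. cerevisiae and to 887 from 546 for S. mikatae minus S. cerevisiae, and leaving out S. cerevisiae alpha factor array 1 gave 481 and 316 for these differences in the same order. Leaving out its array 3 gave 521 and 348, 1126 (against 1946) for the S. cerevisiae response and 370 (against 675) for mating minus alpha factor, and S. paradoxus minus S. cerevisiae gave 491 without S. paradoxus array 1. The replicate block changed 7 of 208 calls or misses of members, and ended those of ERG2 in S. cerevisiae (adjusted p = 0.0649), ERG24 in S. paradoxus minus S. cerevisiae (0.0536), ERG20 (0.0678) and ERG2 (0.062) in S. mikatae minus S. paradoxus, and HMG1 in mating minus alpha factor (0.0608), while ERG28 in S. paradoxus and IDI1 in S. cerevisiae passed as falls. Fitting the compared arrays alone ended calls of MVD1 and ERG2 in S. cerevisiae, ERG26 and ERG5 in S. mikatae, ERG9 in mating, ATF2 in S. paradoxus minus S. cerevisiae, HMG2 in S. mikatae minus S. cerevisiae, and ERG20, ERG2 and ERG5 in S. mikatae minus S. paradoxus (adjusted p 0.0513 to 0.1). ERG2 in S. mikatae minus S. paradoxus was also lost under scaling (0.0579) and quantile normalization (0.0678), ERG20 there under quantile normalization (0.173) and without centring (0.0513), and IDI1 in S. mikatae with array weights (0.0517). Early minus late moved with the genes counted: over genes tested in all 4 groups, an alternative chosen after seeing the data, it was 0.21 in S. mikatae (against −0.07), 0.0306 in mating (against −0.02), 0.11 for S. mikatae minus S. cerevisiae (against −0.18) and 0.00184 for S. mikatae minus S. paradoxus (against −0.28). It moved by less than the spread between arrays without centring, with scaling and with quantile normalization. The number of arrays limits the precision.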

Other observations

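Heme and hypoxic genes, which bear on the oxygen-dependent steps, were looked at as lists. Of 8 heme synthesis genes, 2 rose and 1 fell of 7 tested in S. mikatae, 3 rose and 1 fell of 8 in S. paradoxus, 2 rose and 1 fell of 5 in mating, and 1 rose and 2 fell of 8 in S. cerevisiae after alpha factor. These are 42.9%, 50%, 60% and 37.5% of the genes tested, beside 48.7%, 49.3%, 41.2% and 33.6% of all ORFs. HEM13, the oxygen-requiring coproporphyrinogen oxidase, stood at 0.17 ± 0.197 in S. mikatae and −0.20 ± 0.354 in S. paradoxus, rose in mating (0.39 ± 0.113) and fell in S. cerevisiae after alpha factor (−0.97 ± 0.154). Its mating call was lost without mating array 1 (adjusted p = 0.0518) or 2 (0.0787). The difference from S. cerevisiae after alpha factor was 1.14 in S. mikatae (adjusted p = 0.000231), 0.77 in S. paradoxus (adjusted p = 0.00531) and 1.36 in mating (adjusted p = 5.1e-05).

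Of 14 hypoxic genes, 1 rose and 2 fell of 6 tested in S. mikatae, 0 rose and 1 fell of 7 in S. paradoxus, 3 rose and 0 fell of 9 in mating, and 1 rose and 6 fell of 14 in S. cerevisiae after alpha factor. These are 50%, 14.3%, 33.3% and 50%, beside 48.7%, 49.3%, 41.2% and 33.6% of all ORFs, with S. mikatae near the background and S. paradoxus and mating below it. OLE1, the fatty acid desaturase, fell in S. mikatae (−1.12 ± 0.271), S. paradoxus (−1.39 ± 0.218) and S. cerevisiae after alpha factor (−2.42 ± 0.343), and gave no value in mating. DAN1, a cell wall protein of anaerobic cells, rose in mating (1.62 ± 0.485, n = 2) and stood at 0.49 ± 0.455 in S. paradoxus (n = 2) and 0.44 ± 0.081 in S. cerevisiae after alpha factor (n = 2). ROX1, the repressor of hypoxic genes, fell in S. mikatae (−0.39 ± 0.113), mating (−0.81 ± 0.108) and S. cerevisiae after alpha factor (−0.38 ± 0.109), and stood at 0.02 ± 0.158 in S. paradoxus. MOT3, another repressor of hypoxic and ergosterol genes, fell in S. paradoxus (−0.46 ± 0.242), mating (−0.84 ± 0.195) and S. cerevisiae after alpha factor (−0.70 ± 0.223).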
